A study of Homo sapiens with 8 samples.

Results

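Solute carriers are the membrane proteins that move amino acids, sugars, metals, ions, vitamins and nucleotide sugars across the plasma membrane and the membranes of organelles. The genes described here are those in the deposited count table whose symbols follow the pattern SLC, a family number, a letter and a member number, without the mitochondrial SLC25 carriers, and with at least 50 ribosome footprints summed over the 4 footprint libraries. Of the 14668 genes in the table, 222 carried such a symbol and 136 of those reached 50 footprints. The lowest sums inside the rule were 52 for SLC16A6, 54 for SLC52A3 and 56 for SLC8A1, and the highest sums outside it were 46 for SLC50A1, 45 for SLC38A4 and 44 for SLC2A12. The members were thus chosen by their summed footprint counts over both arms together, not by the difference between the arms. A sum can still come mainly from 1 arm. For SLC30A5 it came from 5 and 3 footprints in the libraries of 1 arm and 30 and 39 in those of the other.

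The samples were T3M4 cells, an established human pancreatic cancer line. One arm carried a guide RNA against METTL13 (sgMETTL13) and the other a non-targeting guide (sgControl). METTL13 is the enzyme that methylates the translation elongation factor eEF1A. Both arms spent 18 h in medium with no serum, followed by 2 h with 10% FBS, and RNA-seq and ribosome profiling were made from lysate supernatants. The 4 groups were sgMETTL13 footprints, sgMETTL13 mRNA, sgControl footprints and sgControl mRNA, with 2 libraries in each. The labels do not say whether the 2 libraries of a group came from separate cultures, or whether either arm was grown from a clone, so the p-values measure the spread between these libraries, which may be technical.

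As background, amino acid carriers of the SLC7 family such as the cystine importer xCT pair with the heavy chain 4F2hc, encoded by SLC3A2, to reach the cell surface. Zinc is moved by 2 families, mostly in opposite directions: most ZnT proteins (SLC30) take it out of the cytosol and the ZIP proteins (SLC39) bring it in. Pancreatic cancer cells are known for high glucose uptake through GLUT1 (SLC2A1), lactate release through MCT4 (SLC16A3), and dependence on cystine uptake through xCT (SLC7A11).

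Footprint libraries held 9837253 and 8916807 counts in sgMETTL13 and 8181707 and 6063885 in sgControl, and RNA libraries held 20860953 to 48353722. METTL13 itself had 20.1 and 26.2 footprint CPM (counts scaled to the library total and TMM factor) in sgMETTL13 cells, against 65.2 and 57.8 in sgControl cells. The log2 fold change of its footprints was -1.41 ± 0.16 and that of its mRNA -1.42 ± 0.41 (SE; unadjusted p = 0.00457, edgeR quasi-likelihood test), which did not pass after adjustment. All 7 epithelial markers checked were measured, with a summed mRNA level of 2870 to 4190 CPM in sgMETTL13 and 3630 to 4170 CPM in sgControl. The fibroblast markers summed to at most 32.9 CPM, the leukocyte markers to at most 49.3 CPM, the endothelial markers to at most 1.59 CPM and the acinar markers to at most 0.0249 CPM. The sgMETTL13 RNA libraries differed from each other: mRNA of replicate 1 was at least 2-fold above replicate 2 in 39 of 135 carriers and the reverse held for 1, while 21.9% of all 12468 genes tested showed the first pattern.

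Ribosome footprints of 10 carriers were higher in sgMETTL13 cells, 7 were lower and 119 did not pass an adjusted p of 0.05 in edgeR's quasi-likelihood test. That is 12.5% of the 136 carriers, beside 21.0% of the 10714 genes tested (8.94% higher and 12% lower), a lower share whose difference from the table was not tested. In such bulk libraries a change in every cell and a change in some of the cells cannot be told apart. The median footprint log2 fold change was 0.09 over the carriers and 0.01 over all genes tested. The carriers that rose were the amino acid carriers SLC7A6, SLC38A2, SLC1A4 and SLC7A11, the zinc carriers SLC30A9 and SLC39A6, the copper importer SLC31A1, the iron importer SLC11A2, the sulfate carrier SLC26A2 and the proton exchanger SLC9B2. Those that fell were the zinc carriers SLC30A5 and SLC39A14, the Golgi GDP-fucose carrier SLC35C1, SLC35F6, the chloride/bicarbonate exchanger SLC4A2, SLC38A10 and the lactate exporter SLC16A3. At an unadjusted p under 0.05, 22 carriers were higher and 18 lower, beside 34.6% of all genes. Values of the sgMETTL13 and sgControl libraries did not overlap for 81 of the 136 carriers, beside 64.1% of all genes.

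How far each call rests on a library differed. For all called genes, the share whose call held whichever library was left out was not computed. The calls of 6 of the 17 carriers held whichever library was left out: SLC7A6, SLC38A2, SLC7A11, SLC30A9, SLC30A5 and SLC4A2. Without sgMETTL13 replicate 1, 9 carriers were higher and 8 lower (14.7% of all genes called). Without sgMETTL13 replicate 2 the counts were 5 and 2 (6.44% of all genes), without sgControl replicate 1 15 and 11 (27.4%), and without sgControl replicate 2 5 and 2 (7.49%). DESeq2 gave an adjusted p for 91 of the 136 carriers and called 6 higher and 6 lower (17.1% of all genes given one), and limma voom called 10 and 7 (20.4%). When footprint and RNA libraries shared an estimate of spread in an edgeR model of all 8 libraries, 0 of 135 carriers and 0 of 10446 genes passed, and 5 carriers were higher and 5 lower at an unadjusted p under 0.05. In all 7 carriers that fell, sgControl replicate 2 was above sgControl replicate 1, as it was for 92.9% of all genes called lower. In 6 of the 10 that rose, sgControl replicate 2 was the lower of the sgControl libraries, a smaller share than the 89.0% of all genes called higher.

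**Figure D1:**
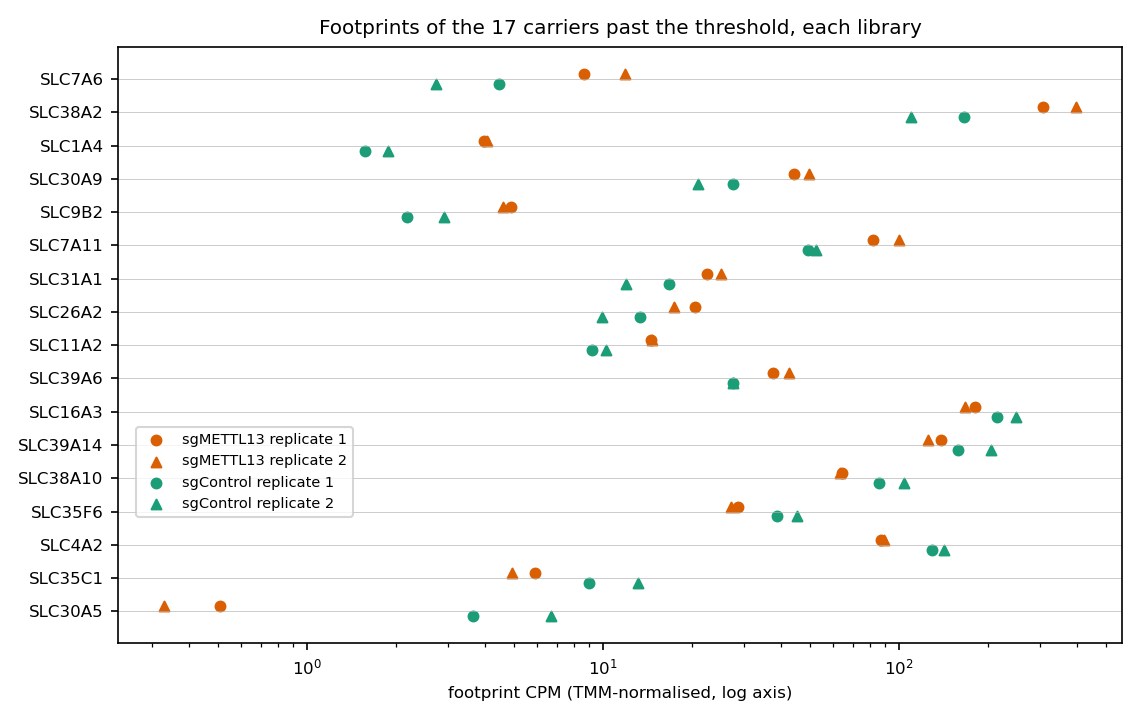
Footprint CPM (TMM-normalised, log axis) of the 17 carriers with an adjusted p below 0.05, in each of the 2 sgMETTL13 libraries (orange) and the 2 sgControl libraries (green). The orange and green points of a gene do not overlap in any row. The choice of genes by p in these same libraries favours this, and 64.1% of all genes had no overlap. SLC30A5 lies farthest apart, at 0.508 and 0.329 CPM in sgMETTL13 against 3.63 and 6.67 CPM in sgControl.

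Sequences upstream of the start sites are shown for 4 of those 6 carriers: SLC7A6 and SLC38A2, with the largest rises, SLC30A9, and SLC30A5, with the largest fall. They are the 250 bases before the RefSeq start site on GRCh38.p14, read 5′ to 3′ along the gene's strand. Capitals mark the letters TGACNNNGC, the core of the antioxidant response element, and TGACGT, the core of the cAMP response element, on either strand.
SLC7A6 (chr16:68264276-68264525, + strand): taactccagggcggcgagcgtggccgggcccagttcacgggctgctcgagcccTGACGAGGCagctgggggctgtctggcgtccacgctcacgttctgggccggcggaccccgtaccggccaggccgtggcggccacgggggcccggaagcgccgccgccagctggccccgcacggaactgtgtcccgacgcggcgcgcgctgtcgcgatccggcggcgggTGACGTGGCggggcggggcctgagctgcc
SLC38A2 (chr12:46372774-46373023, - strand): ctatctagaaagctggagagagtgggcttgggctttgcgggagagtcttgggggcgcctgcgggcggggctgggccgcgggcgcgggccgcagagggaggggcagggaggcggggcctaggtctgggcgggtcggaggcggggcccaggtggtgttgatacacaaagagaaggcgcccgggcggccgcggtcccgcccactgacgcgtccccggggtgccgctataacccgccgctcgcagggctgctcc
SLC30A9 (chr4:41990280-41990529, + strand): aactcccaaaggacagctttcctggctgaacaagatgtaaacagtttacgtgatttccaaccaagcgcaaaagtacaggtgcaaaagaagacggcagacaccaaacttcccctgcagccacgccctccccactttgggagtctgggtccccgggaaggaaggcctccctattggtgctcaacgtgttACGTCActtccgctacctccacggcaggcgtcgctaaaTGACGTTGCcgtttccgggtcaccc
SLC30A5 (chr5:69093764-69094013, + strand): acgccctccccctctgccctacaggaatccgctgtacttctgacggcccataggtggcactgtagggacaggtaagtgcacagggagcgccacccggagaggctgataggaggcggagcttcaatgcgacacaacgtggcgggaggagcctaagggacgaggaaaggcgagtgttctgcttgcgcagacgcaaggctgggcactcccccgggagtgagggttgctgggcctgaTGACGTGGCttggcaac
The risen SLC7A6 and SLC30A9 and the fallen SLC30A5 carried both sets of letters, and SLC38A2 carried neither. SLC4A2, another of those 6 carriers, whose sequence is not shown, also carried neither. A stretch can hold both at once, since TGACGT fits within TGACNNNGC. RefSeq promoters matched 110 of the 136 carriers. TGACNNNGC was present in 22 of those 110 and in 13.2% of all 27305 genes with a promoter. TGACGT was in 13 of the 110 and in 8.62% of all genes. Of the carriers called in footprints, 9 risen and 5 fallen had a promoter. TGACNNNGC was in 2 of the 9 and 1 of the 5, and TGACGT in 3 of the 9 and 2 of the 5. The amino acid response core, TGATGNAA, was in 4 of the 110 carriers and 3.89% of all genes, and the metal response core, TGCACNC or TGCGCNC, in 45 of the 110 and 28.5% of all genes. These counts describe letters in this window.

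Amino acid carriers formed the largest family, with 24 members, of which 4 rose and 1 fell in footprints. That is 20.8% of the family, close to the 21.0% of all genes called. Their median footprint log2 fold change was 0.17, beside 0.01 for all genes. At an unadjusted p under 0.05, 7 were higher and 2 lower, beside 34.6% of all genes in either direction.

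SLC7A6 (y+LAT2; chr16:68264526-68301819), which exchanges cationic for neutral amino acids as a partner of 4F2hc, had 8.64 and 11.9 footprint CPM in sgMETTL13 cells, against 4.48 and 2.74 CPM in sgControl cells. The arms did not overlap, and the lower sgMETTL13 library was well above the higher sgControl library. The footprint log2 fold change was 1.46 ± 0.28 (SE; edgeR quasi-likelihood adjusted p = 0.000558). Its mRNA was 64.1 and 53.8 CPM in sgMETTL13 against 54.5 and 63.5 CPM in sgControl, with a log2 fold change of 0.00 ± 0.38. The mRNA values of the arms interleave. SLC7A6 lies beside and overlaps SLC7A6OS, so reads in the shared stretch cannot be assigned without the counting rule.

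SLC38A2 (SNAT2; chr12:46358188-46372773), the sodium-coupled importer of glutamine, alanine and other small neutral amino acids that cells are known to raise when amino acids run short, had 307 and 397 footprint CPM in sgMETTL13 against 166 and 110 CPM in sgControl. Both sgMETTL13 libraries lay above both sgControl libraries, by a log2 fold change of 1.35 ± 0.16 (edgeR adjusted p = 5.99e-07). Its mRNA was 1594 and 421 CPM in sgMETTL13 against 496 and 524 CPM in sgControl. Only sgMETTL13 RNA replicate 1 was high, and replicate 2 was below both sgControl libraries. The mRNA log2 fold change was 0.98 ± 0.51 (edgeR unadjusted p = 0.0771).

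SLC7A11 (xCT; chr4:138164097-138242349), the cystine/glutamate exchanger that feeds glutathione synthesis, had 81.5 and 99.9 footprint CPM in sgMETTL13 against 49.2 and 52.5 CPM in sgControl. The arms were apart, and the log2 fold change was 0.84 ± 0.15 (edgeR adjusted p = 0.000225). Its mRNA was 169 and 44.4 CPM in sgMETTL13 against 45.6 and 38.4 CPM in sgControl, so again replicate 1 alone was high. The mRNA log2 fold change was 1.34 ± 0.54 (edgeR unadjusted p = 0.0295, adjusted p = 0.99992). The antisense gene SLC7A11-AS1 overlaps it, and the strand setting of the counting is not given in the sources used here.

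SLC1A4 (ASCT1), a carrier of serine, alanine and other neutral amino acids, had 3.96 and 4.06 footprint CPM in sgMETTL13 against 1.57 and 1.88 CPM in sgControl. The arms did not overlap (log2 fold change 1.23 ± 0.35, edgeR adjusted p = 0.0125). The counts behind it are low, and the call was lost without sgMETTL13 replicate 2 or either sgControl library, with log2 fold changes of 1.09 to 1.34 over the leave-one-out fits and adjusted p up to 0.0899. SLC38A10, of the same family as SLC38A2, had 64.2 and 63.2 footprint CPM in sgMETTL13 against 85.7 and 104 CPM in sgControl. It was lower, with a log2 fold change of -0.57 ± 0.14 (edgeR adjusted p = 0.00512), and its call was lost without sgMETTL13 replicate 2 or sgControl replicate 2 (adjusted p up to 0.0805).

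Footprints of 4 well-known amino acid carriers did not pass. SLC3A2, the heavy chain that SLC7A6, SLC7A11 and SLC7A5 share, had 1488 and 1519 footprint CPM in sgMETTL13 against 1519 and 1567 CPM in sgControl, a log2 fold change of -0.04 ± 0.11 (edgeR adjusted p = 0.849). The 4 libraries of SLC3A2 thus lay within a narrow band while footprints of its light chains SLC7A6 and SLC7A11 were higher. SLC7A5 (LAT1), the main importer of leucine and other large neutral amino acids, had 484 and 492 footprint CPM in sgMETTL13 against 467 and 592 CPM in sgControl (log2 fold change -0.12 ± 0.13). SLC1A5 (ASCT2), a glutamine carrier, differed by -0.06 ± 0.12, and SLC7A1 (CAT1), an arginine importer, by 0.03 ± 0.14. None of these 4 passed in any of the leave-one-out fits.

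Several further amino acid carriers had positive fold changes that did not pass. SLC36A1, the proton-coupled amino acid carrier of lysosomes, had 11.5 and 9.66 footprint CPM in sgMETTL13 against 7.50 and 6.16 CPM in sgControl (log2 fold change 0.62 ± 0.24, edgeR adjusted p = 0.0647). SLC38A9, the lysosomal arginine sensor, chosen here after its values were seen, had a log2 fold change of 0.65 ± 0.24 (edgeR adjusted p = 0.0535). The arms did not overlap for either gene. Both passed with no filter on low counts, and SLC38A9 also without sgControl replicate 1 (edgeR adjusted p = 0.0408). At the other end, SLC6A17, also chosen after its values were seen, had 1.63 and 1.76 CPM in sgMETTL13 against 2.66 and 3.59 CPM in sgControl, a log2 fold change of -0.85 ± 0.36 (edgeR adjusted p = 0.0893).

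**Figure D2:**
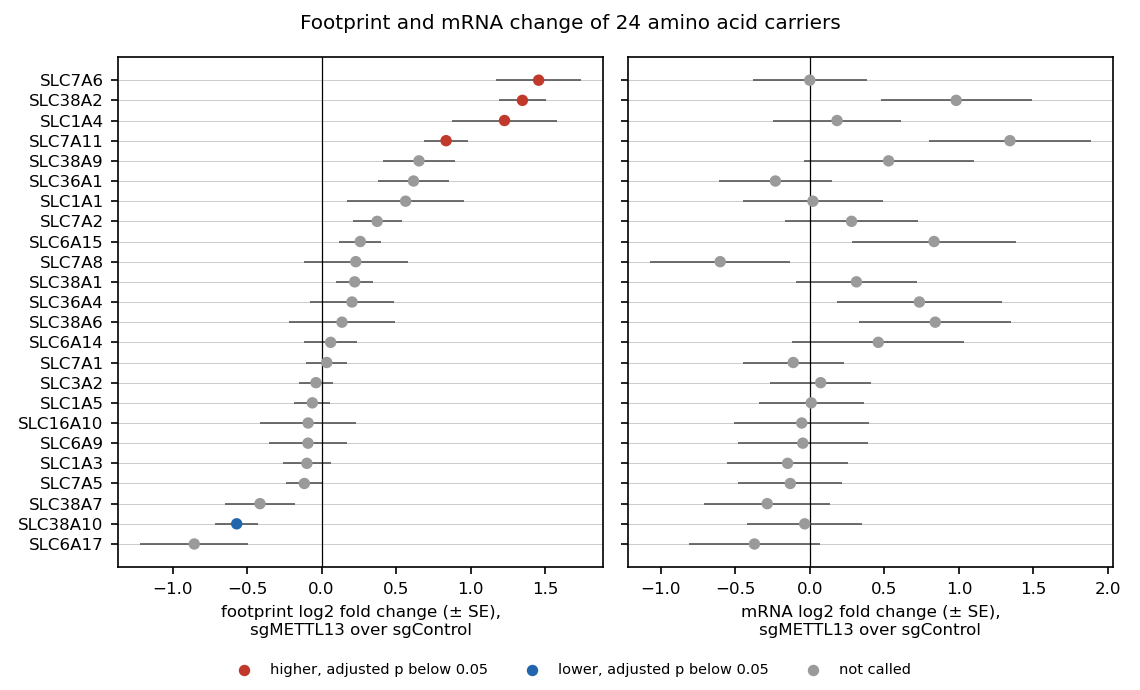
Footprint (left) and mRNA (right) log2 fold changes, sgMETTL13 over sgControl, of the 24 amino acid carriers, with bars of 1 SE and colours for the adjusted p within that assay. The footprint changes run from -0.85 for SLC6A17 to 1.46 for SLC7A6, and the mRNA bars are wider and none of the mRNA points passed.

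Zinc carriers numbered 16, of which 2 rose and 2 fell in footprints, where 21.0% of all genes were called. Both families were on both sides: of 5 ZnT carriers 1 rose and 1 fell, and of 11 ZIP carriers 1 rose and 1 fell. The family median was 0.17.

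SLC30A5 (ZnT5; chr5:69094014-69131069) loads zinc into the early secretory pathway as a heterodimer with ZnT6. It had 5 and 3 footprints in the sgMETTL13 libraries (0.508 and 0.329 CPM), against 30 and 39 footprints in the sgControl libraries (3.63 and 6.67 CPM). Both sgMETTL13 values were far below both sgControl values, and the second was at the level of 3 counts in that library, the limit that a count of 0 allows. The summed counts, scaled for depth, gave a ratio of 0.0863 (exact 95% interval 0.0359 to 0.18, for counting error only), an 11.6-fold difference with bounds of 5.56 and 27.9.

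The fitted footprint log2 fold change of SLC30A5 was -3.51 ± 0.46 (edgeR adjusted p = 5.44e-06), the lowest of the 10714 genes tested, and it was -3.93 to -3.07 over the leave-one-out fits. Its mRNA was 94.6 and 49.6 CPM in sgMETTL13 against 56.3 and 52.7 CPM in sgControl. The mRNA arms overlapped (log2 fold change 0.40 ± 0.42). Translational efficiency, the footprint change beyond the mRNA change in a model of all 8 libraries, had a log2 fold change of -3.96 ± 0.67 with the smallest unadjusted p of 10446 genes (0.000198), which was 0.999 after adjustment in edgeR. DESeq2 gave that efficiency difference an adjusted p of 0.0019, and gave the footprint difference none. In the model of all 8 libraries the footprint difference of SLC30A5 had an adjusted p of 0.176.

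SLC30A6 (ZnT6), the partner of ZnT5, named here after its values were seen, had 2.64 and 6.48 footprint CPM in sgMETTL13 against 2.54 and 1.71 CPM in sgControl. Only sgMETTL13 replicate 2 was high, replicate 1 being close to the higher sgControl library, and the log2 fold change of 1.04 ± 0.38 did not pass (edgeR adjusted p = 0.0513). The fitted changes of the partners thus had opposite signs, and only that of SLC30A5 passed with all libraries. The value of SLC30A6 moved with the library left out, with log2 fold changes of 0.28 to 1.56 and edgeR adjusted p of 0.00237 to 0.799. It passed without sgMETTL13 replicate 1 or sgControl replicate 1, and with no filter on low counts.

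SLC30A9 (ZnT9; chr4:41990530-42090461), which exports zinc from mitochondria, had 44.2 and 49.7 footprint CPM in sgMETTL13 against 27.5 and 21.0 CPM in sgControl. The arms were well apart (log2 fold change 0.94 ± 0.17, edgeR adjusted p = 0.000235). Its mRNA was 86.1 and 24.3 CPM in sgMETTL13 against 35.5 and 30.97 CPM in sgControl, with replicate 1 alone high. SLC30A1 (ZnT1), the zinc exporter of the plasma membrane, had 67.8 and 62.9 footprint CPM in sgMETTL13 against 64.5 and 51.5 CPM in sgControl and did not pass (log2 fold change 0.17 ± 0.15).

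Among the importers, SLC39A6 (ZIP6) had 37.6 and 42.6 footprint CPM in sgMETTL13 against 27.6 and 27.5 CPM in sgControl, a log2 fold change of 0.54 ± 0.16 (edgeR adjusted p = 0.0167). SLC39A10 (ZIP10), with which ZIP6 is known to form a complex, had 187 and 137 CPM in sgMETTL13 against 195 and 226 CPM in sgControl and did not pass (log2 fold change -0.38 ± 0.14, edgeR adjusted p = 0.057). Both of these pairs of arms were apart, in opposite directions, as arms were for 64.1% of all genes. Of this pair only SLC39A6 passed with all libraries. SLC39A14 (ZIP14), an importer of zinc, iron and manganese, had 139 and 125 CPM in sgMETTL13 against 158 and 205 CPM in sgControl, and fell, with a log2 fold change of -0.46 ± 0.14 (edgeR adjusted p = 0.0178). The calls of SLC39A6 and SLC39A14 were lost without sgMETTL13 replicate 2 or sgControl replicate 2, with adjusted p up to 0.226 and 0.296. SLC39A10 passed without sgMETTL13 replicate 1 or sgControl replicate 1.

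SLC39A7 (ZIP7), which releases zinc from the endoplasmic reticulum, had 276 and 230 footprints in sgMETTL13 and 193 and 140 in sgControl, a log2 fold change of 0.17 ± 0.17 that did not pass. It was listed at 0 RNA counts in all 4 RNA libraries, so it has no mRNA or efficiency value. Of the 10355 genes with at least 50 footprints, 94 were listed at 0 RNA counts in this way, SLC39A7 included. On chromosome 6 between positions 28000000 and 34000000, a window chosen after the values were seen, 9 of the 59 genes with that many footprints showed this, SLC39A7 among them.

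**Figure D3:**
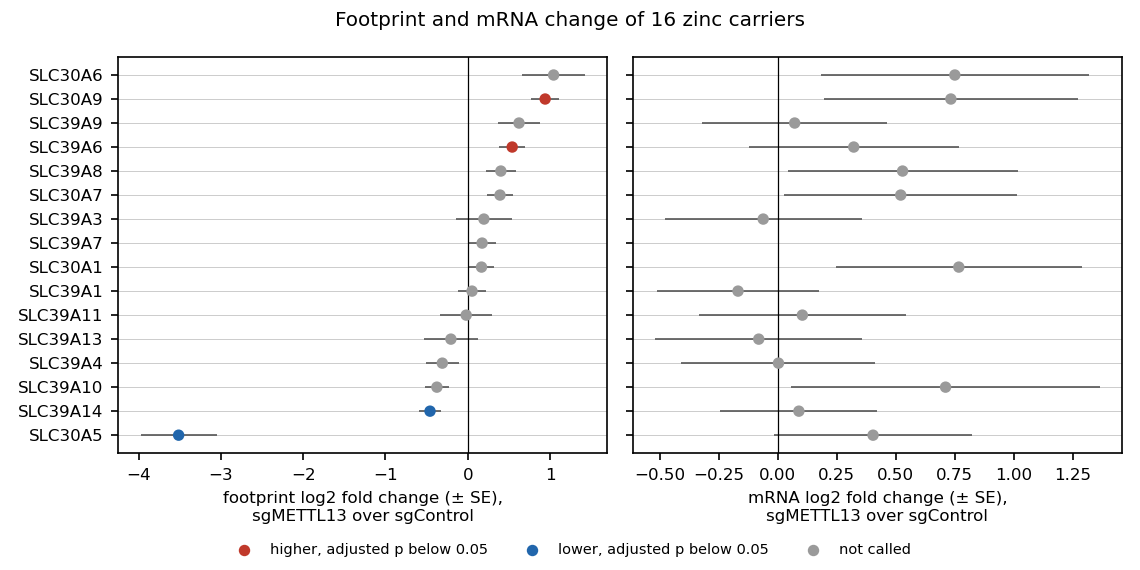
Footprint (left) and mRNA (right) log2 fold changes, sgMETTL13 over sgControl, of the 16 zinc carriers, with bars of 1 SE and colours for the adjusted p within that assay; SLC39A7 has no mRNA value. SLC30A5 stands at -3.51 in footprints and 0.40 in mRNA, and the other 15 carriers lie between -0.46 and 1.04 in footprints.

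Of the glucose and sugar carriers, none of 11 passed in edgeR or limma voom, beside 21.0% of all genes in edgeR. DESeq2 gave an adjusted p to 6 of the 11, and none of those passed. At an unadjusted p under 0.05 in edgeR, 1 was higher and 2 lower, beside 34.6% of all genes in either direction. The family ran from -0.32 to 0.41 with a median of -0.07. SLC2A1 (GLUT1), the basal glucose importer, had 337 and 285 footprint CPM in sgMETTL13 against 372 and 385 CPM in sgControl. SLC2A3 (GLUT3) had 66.4 and 53.4 CPM in sgMETTL13 against 65.4 and 84.5 CPM in sgControl. The arms were apart for SLC2A1 and overlapped for SLC2A3, and neither log2 fold change passed (-0.28 ± 0.12, edgeR adjusted p = 0.102, and -0.32 ± 0.15, edgeR adjusted p = 0.142). The counts of SLC2A3 may share reads with its numbered pseudogenes. SLC37A4, the glucose-6-phosphate carrier of the endoplasmic reticulum, was at the higher end with 0.41 ± 0.18 (edgeR adjusted p = 0.103). When sgControl replicate 1 was left out, SLC37A4 passed as higher (edgeR adjusted p = 0.0412) and SLC2A3 as lower.

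Of the 9 carriers of the monocarboxylate family, 1 passed, beside 21.0% of all genes. SLC16A3 (MCT4), the lactate exporter of glycolytic cells, had 181 and 167 footprint CPM in sgMETTL13 against 215 and 249 CPM in sgControl, without overlap. Its log2 fold change was -0.41 ± 0.13 (edgeR adjusted p = 0.0215), and the call held only in the fit without sgControl replicate 1 among the 4 leave-one-out fits (adjusted p up to 0.277). SLC16A1 (MCT1) had 591 and 556 CPM in sgMETTL13 against 464 and 502 CPM in sgControl, a log2 fold change of 0.25 ± 0.12 that did not pass (edgeR adjusted p = 0.137). The arms were apart for both carriers, with opposite signs, but only SLC16A3 passed. Arms were also apart for 64.1% of all genes. Basigin (BSG), the ancillary protein that brings both to the surface, had 274 and 311 CPM in sgMETTL13 against 346 and 393 CPM in sgControl (log2 fold change -0.34 ± 0.13, edgeR adjusted p = 0.0534). SLC16A14 had 3.15 and 1.54 CPM in sgMETTL13 against 3.27 and 6.33 CPM in sgControl, and did not pass (log2 fold change -0.96 ± 0.36, edgeR adjusted p = 0.056). SLC16A14 passed as lower without sgMETTL13 replicate 1 or sgControl replicate 1, and with no filter on low counts. Over the leave-one-out fits its log2 fold change was -1.58 to -0.47 and its edgeR adjusted p 0.00339 to 0.591. SLC16A3 overlaps CSNK1D in the annotation, and SLC16A1 has a numbered pseudogene.

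A group of 6 carriers was placed here under other metals and heme by SLC family, and not every member, such as SLC49A4, need carry these. Of the 6, 2 rose and none fell, beside 8.94% of all genes called higher and 12% called lower. SLC31A1 (CTR1), the copper importer, had 22.5 and 25.1 footprint CPM in sgMETTL13 against 16.7 and 11.97 CPM in sgControl (log2 fold change 0.71 ± 0.19, edgeR adjusted p = 0.00962). SLC11A2 (DMT1), which carries iron across endosomal and intestinal membranes, had 14.5 and 14.7 CPM in sgMETTL13 against 9.19 and 10.3 CPM in sgControl (log2 fold change 0.59 ± 0.21, edgeR adjusted p = 0.0438). The arms were apart for both. The call of SLC31A1 was lost without sgMETTL13 replicate 2 or sgControl replicate 2 (adjusted p up to 0.147), and that of SLC11A2 without any of the 4 libraries (adjusted p up to 0.198). SLC31A1 has a numbered pseudogene and SLC11A2 overlaps HIGD1C.

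Among 23 carriers of inorganic ions and pH, 2 rose and 1 fell, with a median of 0.14. That is 13% of the family, beside 21.0% of all genes. SLC4A2 (AE2; chr7:151058200-151076527), which exchanges chloride for bicarbonate, had 87.0 and 89.2 footprint CPM in sgMETTL13 against 129 and 142 CPM in sgControl. The libraries of each arm lay close together, and the log2 fold change was -0.62 ± 0.13 (edgeR adjusted p = 0.00163), or -0.68 to -0.55 over the leave-one-out fits. Its mRNA was 160 and 239 CPM in sgMETTL13 against 202 and 211 CPM in sgControl, with overlap. SLC26A2, the sulfate carrier, had 20.5 and 17.3 footprint CPM in sgMETTL13 against 13.3 and 9.92 CPM in sgControl (log2 fold change 0.69 ± 0.21, edgeR adjusted p = 0.017). SLC9B2, a sodium/proton exchanger that overlaps SLC9B1, had 4.88 and 4.61 CPM in sgMETTL13 against 2.18 and 2.91 CPM in sgControl (log2 fold change 0.92 ± 0.32, edgeR adjusted p = 0.0383). SLC26A2 lost its call without sgMETTL13 replicate 1 or sgControl replicate 2 (adjusted p up to 0.186), and SLC9B2 without any of the 4 libraries (adjusted p up to 0.23). SLC4A7, a sodium bicarbonate cotransporter, had 96.7 and 96.3 CPM in sgMETTL13 against 78.4 and 70.6 CPM in sgControl and did not pass (log2 fold change 0.37 ± 0.14, edgeR adjusted p = 0.0531).

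Of 17 SLC35 genes, none rose and 2 fell, which is 11.8% called, beside 21.0% of all genes (12% lower). The family includes the nucleotide sugar carriers of the Golgi and endoplasmic reticulum, but not every member is one. SLC35C1, which brings GDP-fucose into the Golgi for fucosylation, had 5.89 and 4.94 footprint CPM in sgMETTL13 against 8.95 and 13.2 CPM in sgControl, with a log2 fold change of -1.002 ± 0.25 (edgeR adjusted p = 0.00571). SLC35F6 had 28.7 and 27.1 CPM in sgMETTL13 against 38.7 and 45.1 CPM in sgControl, with a log2 fold change of -0.58 ± 0.16 (edgeR adjusted p = 0.00991). Both pairs of arms were apart, and both calls were lost without sgMETTL13 replicate 2 or sgControl replicate 2 (adjusted p up to 0.128 for each). SLC35A5 and SLC35F3 had fitted changes of similar size in opposite directions without passing (1.01 ± 0.41, edgeR adjusted p = 0.0764, and -0.90 ± 0.34, edgeR adjusted p = 0.0568), on few counts. The family median was 0.06.

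None of the 16 carriers of vitamins, choline and lipids, the 12 of other organic solutes or the 2 of nucleosides passed in edgeR or limma voom. In edgeR 21.0% of all genes were called. DESeq2 gave an adjusted p to 11 of the 16, 8 of the 12 and 1 of the 2, and none of those passed. At an unadjusted p under 0.05 in edgeR, 1 of the 16 was higher and 4 lower, and none of the 12 or of the 2. The share of all genes was 34.6%. The 16 ranged from -1.07 to 0.61, the ends being SLC52A3, a riboflavin carrier with 0.610 and 1.65 CPM in sgMETTL13 against 2.18 and 2.56 CPM in sgControl, and the choline carrier-like SLC44A3. SLC29A1 (ENT1), the equilibrative nucleoside carrier, had 61.9 and 60.8 footprint CPM in sgMETTL13 against 62.7 and 64.0 CPM in sgControl, a log2 fold change of -0.04 ± 0.14.

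**Figure D4:**
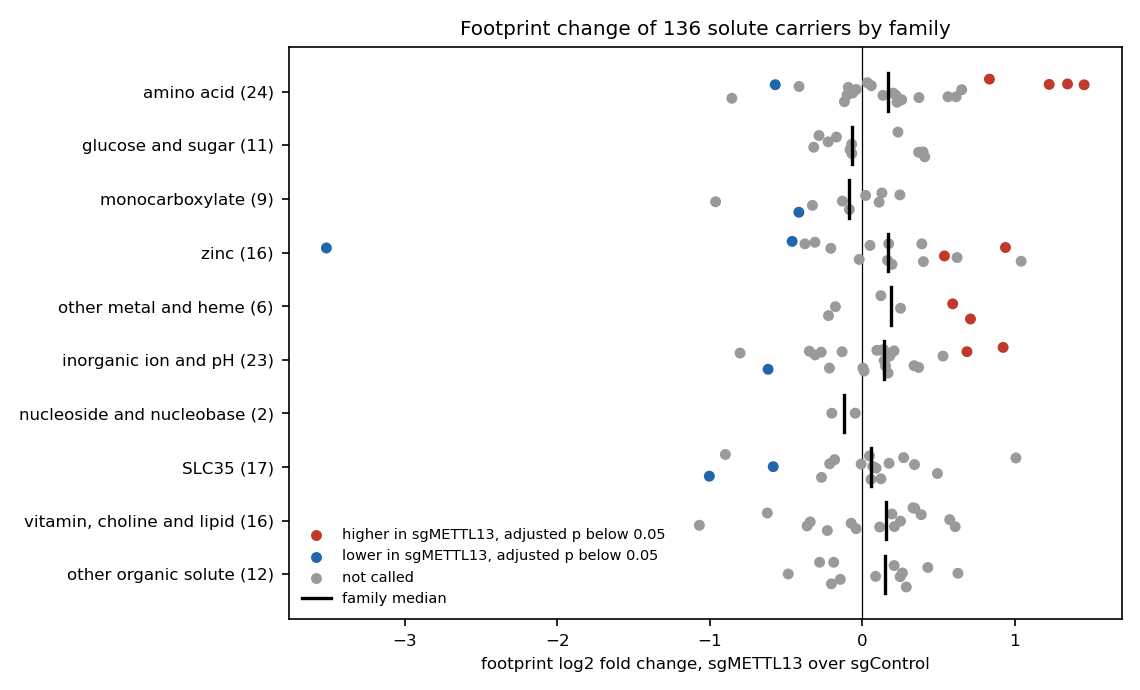
Footprint log2 fold change, sgMETTL13 over sgControl, of each of the 136 carriers by family (number of carriers in parentheses), with the family median as a black bar and carriers past an adjusted p of 0.05 in colour. Family medians lie between -0.12 and 0.19, and the coloured points of the amino acid, zinc and ion families fall on both sides of 0.

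Locations were taken from a list drawn up here, which placed all SLC35 genes in organelle membranes and may misplace single carriers. The 41 carriers listed for organelle membranes held 1 rise and 3 falls (9.76% called), beside 21.0% of all genes. Of these 41, 17 were SLC35 genes, and the falls were SLC35C1, SLC35F6 and SLC30A5. The other 95, listed as of the plasma membrane or of mixed location, held 9 rises and 4 falls (13.7%). The medians of the 2 groups were 0.09 and 0.11. The 30 mitochondrial SLC25 carriers taken by the same count rule held 1 rise and 1 fall (6.67%) with a median of -0.07. The difference between these groups was not tested.

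In mRNA no carrier passed, 0 of 135, as for all 12468 genes in edgeR, and none passed in DESeq2 or limma voom. At an unadjusted p under 0.05 there were 2, SLC7A11 and the fatty acid carrier SLC27A3, beside 0.802% of all genes. SLC27A3 had 4.82 and 11.4 mRNA CPM in sgMETTL13 against 1.59 and 4.91 CPM in sgControl, overlapping ranges with a log2 fold change of 1.34 ± 0.61 (edgeR unadjusted p = 0.0482). The signs of the footprint and mRNA differences were the same in 8 of the 10 carriers whose footprints rose and in 4 of the 7 whose footprints fell. None of these mRNA differences passed, and the same share over all called genes was not computed. In the risen SLC7A6 and SLC9B2, whose signs differed, the mRNA log2 fold changes were -0.00088 and -0.0045.

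The counts of carriers called in mRNA moved with the sgMETTL13 RNA library left out. Without sgMETTL13 replicate 2, 34 carriers were higher in mRNA and 3 lower, beside 19.9% of all genes called. Those 34 included SLC38A2, SLC7A11, SLC30A9, SLC26A2 and SLC39A6, which rose in footprints, and also SLC30A5, which fell. Without sgMETTL13 replicate 1, only SLC27A3 passed, beside 0.214% of all genes. The ratio of sgMETTL13 RNA replicate 1 to replicate 2 was at least 2 in 39 of 135 carriers and in 21.9% of all genes. It was so in 5 of the 10 carriers whose footprints rose and in none of the 7 whose footprints fell. In those 7 it ran from 0.639 in SLC16A3 to 1.91 in SLC30A5. The same shares among all genes called higher or lower in footprints were not computed. By family the median ratio ran from 0.67 in the nucleoside carriers to 1.94 in the monocarboxylate carriers. It was 0.98 over all carriers and 0.99 over all genes. Zinc carriers had a median of 1.91, and the ZnT carriers among them 3.41. In footprints a 2-fold gap between the sgMETTL13 libraries was seen in 1 carrier in that direction and in 2 in the other. The part of this spread in the mRNA result was not tested beyond the values without each library.

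**Figure D5:**
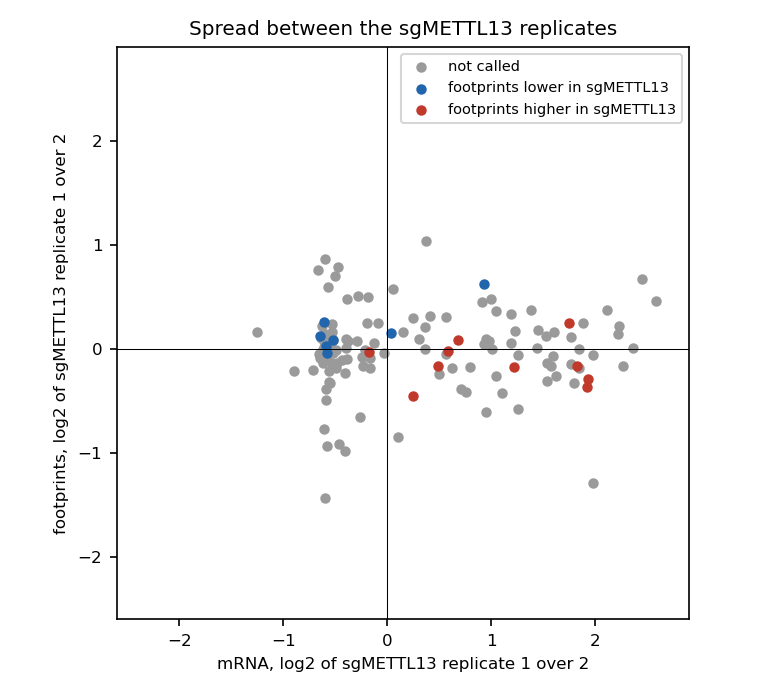
Log2 ratio of sgMETTL13 replicate 1 over replicate 2 in mRNA (x axis) and in footprints (y axis) for the 135 carriers with both values, coloured by the footprint call of sgMETTL13 against sgControl. The points spread from -1.25 to 2.59 along the mRNA axis and from -1.43 to 1.04 along the footprint axis.

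For translational efficiency no carrier passed in edgeR, 0 of 135, as for all 10446 genes. At an unadjusted p under 0.05, 2 were higher and 2 lower, beside 3.32% of all genes. The higher ones were SLC7A6 (log2 fold change 1.50 ± 0.45, edgeR unadjusted p = 0.00794) and SLC1A4 (1.06 ± 0.43, edgeR unadjusted p = 0.0367). The lower ones were SLC30A5 and SLC16A14 (-1.44 ± 0.61, edgeR unadjusted p = 0.0407). Their mRNA log2 fold changes, none of which passed, were 0.00 for SLC7A6, 0.18 for SLC1A4, 0.40 for SLC30A5 and 0.45 for SLC16A14. The efficiency values of SLC38A2 (0.40 ± 0.70) and SLC7A11 (-0.48 ± 0.69) had errors larger than the values themselves. DESeq2 called SLC30A5 alone (0.0479% of all genes) and limma voom called none. Without sgMETTL13 replicate 1 the calls were SLC30A6 and SLC38A2 higher and SLC30A5 lower (0.618% of all genes), and without sgMETTL13 replicate 2 there were 8 lower calls, among them SLC30A5 and SLC7A11 (6.91% of all genes).

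Of the transport genes outside the carriers, 15 were tested in footprints, and 2 were higher and 1 lower. That is 20% called, close to the 21.0% of all genes. ATP1B3, a beta subunit of the sodium pump, which maintains the sodium gradient used by many carriers, had 87.1 and 116 CPM in sgMETTL13 against 63.5 and 38.5 CPM in sgControl (log2 fold change 0.98 ± 0.18, edgeR adjusted p = 0.000253). The beta subunit ATP1B1 did not pass (0.23 ± 0.13). TXNIP, the arrestin that limits glucose uptake, had 258 and 277 CPM in sgMETTL13 against 191 and 156 CPM in sgControl (log2 fold change 0.63 ± 0.13, edgeR adjusted p = 0.00115). STK39 (SPAK), a kinase of the chloride cotransporters, had 118 and 111 CPM in sgMETTL13 against 167 and 212 CPM in sgControl with a log2 fold change of -0.72 ± 0.14 (edgeR adjusted p = 0.000446).

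Regulators of amino acid and cystine carriers did not pass. ATF4, the transcription factor of the amino acid response, had 19.8 and 16.9 footprint CPM in sgMETTL13 against 20.7 and 22.1 CPM in sgControl (log2 fold change -0.21 ± 0.18), and NFE2L2 (NRF2), the factor of the antioxidant response, had 199 and 209 CPM in sgMETTL13 against 176 and 184 CPM in sgControl (0.18 ± 0.13). MTF1, the metal-responsive factor, differed by 0.32 ± 0.30. None of the 17 transport genes outside the carriers tested in mRNA passed in edgeR, and none had an unadjusted p under 0.05.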

How the data were processed

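RNA-seq and ribosome profiling were measured in sgMETTL13 and sgControl T3M4 cells, 2 libraries per group and 8 in all. The authors deposited one table of raw counts per gene symbol, with all 8 libraries as columns. Per the labels' protocols, RNA libraries were stranded and poly(A)-selected with paired 150 bp reads, and ribosomes were pulled down on beads with a puromycin analog after nuclease digestion. The submitters' processing notes name the hg38 build, cutadapt 1.18 and UMI-tools, the aligners Bowtie 1.2.2 and HISAT2 2.0.4, and the counter featureCounts. Which tool served which assay, the annotation, the strand setting and the treatment of reads with several alignments are not given in the sources used here.

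Counts were fitted with edgeR 4.0.16 in R 4.3.3 (TMM scaling and filterByExpr at its default, both inside an assay, quasi-likelihood F test, Benjamini-Hochberg adjustment over all genes tested, threshold 0.05). Footprints and mRNA were fitted apart. Translational efficiency was the interaction of arm and assay over all 8 libraries. A standard error is the size of the log2 fold change divided by the root of its F statistic. Limma 3.58.1 voom and DESeq2 1.42.0 were alternatives, with other size factors, no filter, a replicate block, and each library left out. In simulated counts on 10712 genes the footprint fit called 80% of the genes changed 2-fold and 96% of those changed 4-fold. The mRNA fit (12463 genes) called 5% and 60%, and the efficiency fit (10498 genes) 0% and 11%.

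The carriers, families, partner genes and naming rule were chosen with earlier results of these data known. One listed partner gene is not reported here. Named genes are a fixed set of well-known carriers, every carrier past the footprint threshold (up to 12 in each direction), the 4 smallest footprint p in each family, and the 5 smallest p in mRNA and efficiency. A planned comparison of levels per coding length and of protein features was not made, since no protein table was used here, so levels are compared within a gene only. Coordinates and promoters are RefSeq's, on GRCh38.p14. All 136 symbols matched RefSeq; 28 carriers overlap another protein-coding gene and 16 have numbered pseudogenes, and their counts are uncertain. The counting interval for SLC30A5 covers counting error only. A count of 0 allows 3 counts, which is at most 0.513 CPM in the shallowest footprint library and 0.144 CPM in the shallowest RNA library.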

Additional observations from a re-analysis of the deposited data

How the results depend on the processing

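In footprints, against 10 higher and 7 lower carriers, DESeq2 gave 6 higher and 6 lower, and the model of all 8 libraries gave 0 and 0. Leaving out a library gave 5 to 15 higher and 2 to 11 lower. Limma voom, other size factors, no filter on low counts and a minimum of 200 footprints gave 8 to 15 higher and 6 to 9 lower. In mRNA, against 0 and 0, leaving out a library gave 0 to 34 higher and 0 to 3 lower, both upper ends without sgMETTL13 replicate 2. For translational efficiency, against 0 and 0, leaving out a library gave 0 to 2 higher and 0 to 8 lower, and DESeq2 gave 1 lower. No fold change of a named carrier reversed past the threshold under any alternative run. The cause of these shifts was not tested.

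The labels give same-numbered replicates no more than a shared number, and 2 pairs cannot settle whether they belong together: the gap between replicates 1 and 2 correlated between the arms at -0.18 across genes in footprints and 0.37 in mRNA. With the replicate block, 8 carriers were higher and 7 lower in footprints, and 0 passed in mRNA or efficiency. SLC11A2, SLC9B2 and SLC16A3 lost their footprint calls under the block and SLC16A14 was called lower. With the crossed replicate block, chosen after seeing the data, 15 were higher and 13 lower in footprints.

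In simulated counts, 2-fold changes were recovered in 5% of genes in mRNA and 0% in efficiency, so most differences of that size were not detectable there. Carriers with few footprints, such as SLC30A5, SLC1A4 and SLC9B2, rest on few counts.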

Other observations

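Within each arm, the median carrier had fewer footprints for its mRNA than the median gene, as did the mitochondrial SLC25 carriers. Over the genes tested for translational efficiency, the median log2 ratio of footprint CPM to mRNA CPM was -0.94 for carriers, -1.33 for SLC25 carriers and -0.35 for all genes in sgMETTL13 cells, and -0.88, -1.55 and -0.22 in sgControl cells. The monocarboxylate family stood above all genes in sgControl cells, with medians of -0.46 in sgMETTL13 and 0.55 in sgControl cells. The ratio is not corrected for coding or transcript length, and the difference was not tested.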
